A study of Gallus gallus with 6 samples.

Results

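The genes described here are APAF1, the caspases CASP2, CASP6, CASP8 and CASP9, and the survival genes BCL2, BCL2L1 and MCL1, measured in the brains of female and male chick embryos (Gallus gallus). A probe set was taken when the platform annotation gave one of these 8 symbols as its only gene, which yielded 19 of 37693 chicken probe sets, for 8 of the 13008 genes named in that way. The embryos were at stage 29 (6 to 6.5 days of incubation by their age label), and the labels name no treatment or transgene. They were sexed genetically and their brains pooled by sex, 5 to 8 embryos to a pool. Expression was measured in 3 female pools and 3 male pools, with 1 Affymetrix chicken array for each. Values are log2 signals, so a difference of 1 unit is a doubling, and every difference is female minus male.

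Apoptosis removes many cells of the growing vertebrate nervous system. In its mitochondrial route, proteins of the BCL2 family decide whether cytochrome c leaves the mitochondrion, and BCL2, BCL2L1 (also called BCL-XL) and MCL1 hold that release back. Cytochrome c that has escaped binds APAF1, which assembles into the apoptosome and activates the initiator CASP9. CASP8 is the initiator below death receptors, CASP2 is an initiator linked to stress and DNA damage, and CASP6 is an executioner that cleaves lamins and other proteins. These roles are known mainly from mammals.

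The members were selected on the comparison of the sexes, because an APAF1 probe set was already known to have passed in it. Their differences are therefore given as a description, with the standard error (SE) of limma's fit over all chicken probe sets. Of the 19 probe sets 1, of APAF1, passed an adjusted p under 0.05 (limma, Benjamini-Hochberg over 37693 probe sets), where 0.554% of all chicken probe sets passed. Higher in females were 0.111% of all chicken probe sets and lower in females 0.443%. Among the 25589 single-gene probe sets on numbered autosomes, where the members lie, 11 passed, 10 higher and 1 lower in females. Nothing is read from the members' share.

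Sex labels and tissue were checked first. The W-linked HINTW had signals of 13.09 to 13.31 in female pools and 4.63 to 5.97 in male pools in its brighter probe set. Markers of brain neurons were well above background: 6 of 7 listed were on the array by symbol, among them STMN2, TUBB3 and SNAP25, and so were all 6 progenitor markers. Background was gauged from 689 viral and other non-chicken probe sets, whose mean signals had a 95th percentile of 4.21. Red blood cell genes were also bright. The mean of the 3 haemoglobin genes matched by symbol ran from 11.11 to 11.85 in female and from 11.64 to 12.16 in male pools, so the pools held blood. All 3 had a negative difference, HBZ at -0.94, HBE at -0.28 and HBAD at -0.16, and none passed. Muscle markers lay at 3.90 to 4.00 in female and 4.01 to 4.18 in male pools, and 2 of the 5 on the array, TNNI2 and TNNT3, lay above 4.21, while MYL1, ACTA1 and MYOD1 lay under it.

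**Figure D1:**
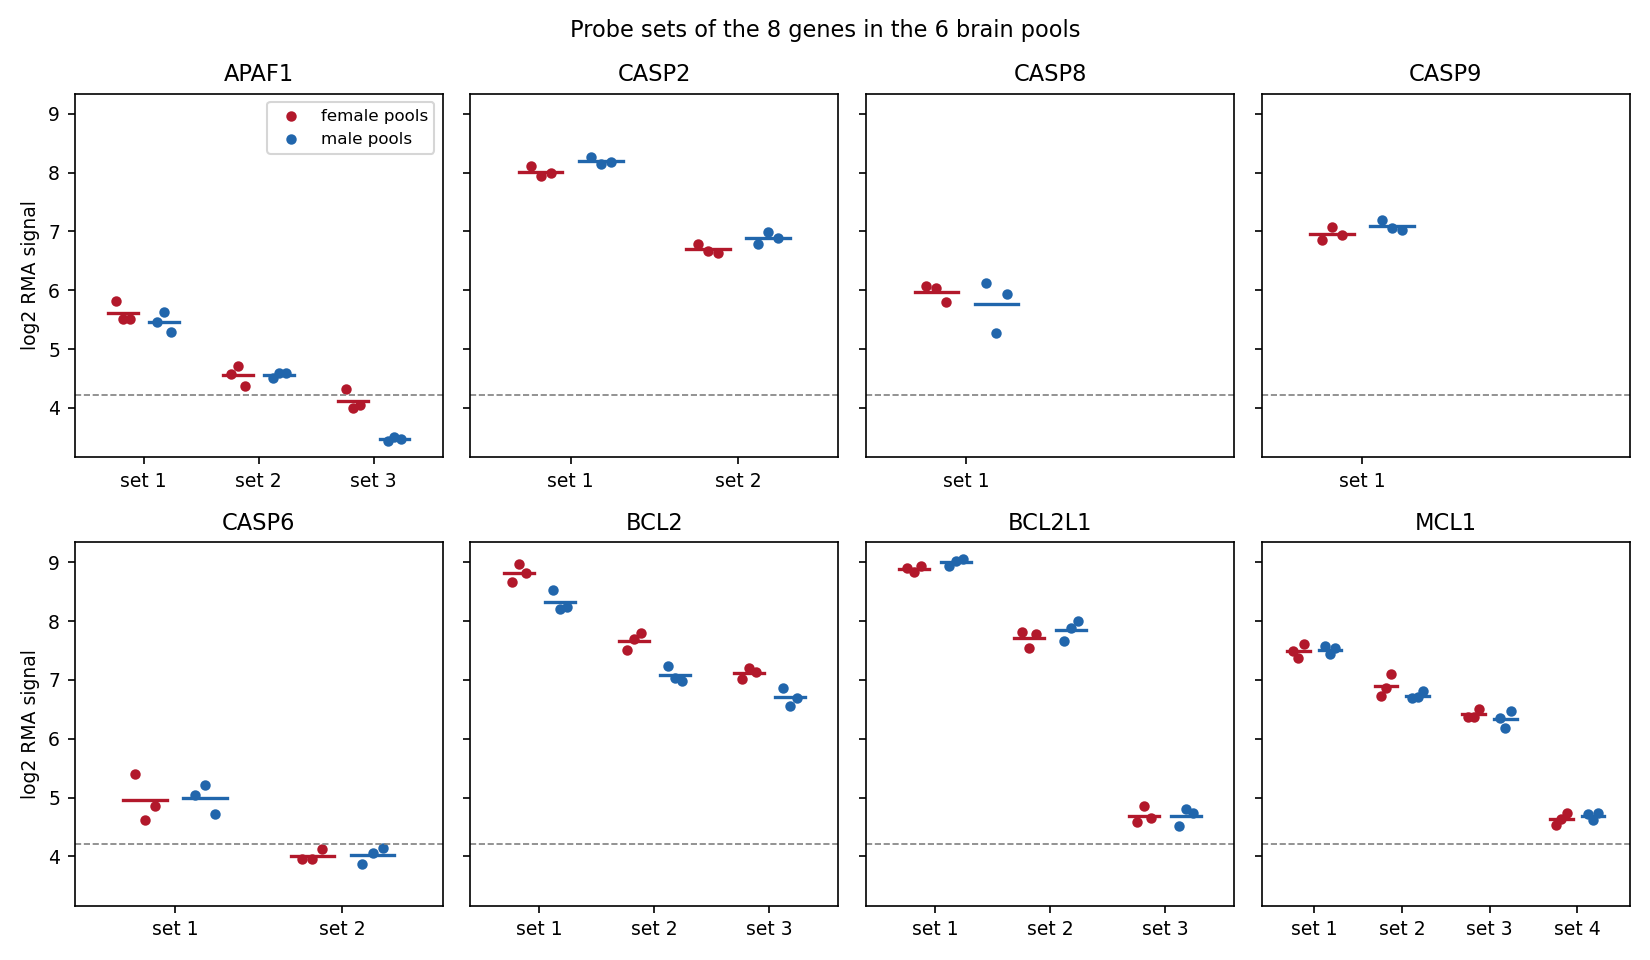
Log2 RMA signal (vertical axis) of the 19 probe sets in 3 female pools (red, left) and 3 male pools (blue, right), a panel for each gene, with probe sets ordered from bright to dim as set 1 onward. Points are pools, short lines are means, and the dashed line is the non-chicken 95th percentile at 4.21. The 3 BCL2 sets show every female pool above every male pool, and APAF1 set 3 does so below or near the dashed line.

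APAF1, the scaffold of the apoptosome, was measured by 3 probe sets that did not give the same picture. In the dimmest, Gga.15359.1.S1_at, the signals were 4.33, 4.00 and 4.04 in female pools and 3.44, 3.51 and 3.47 in male pools. Every female pool lay above every male pool, and the male pools lay close together. The means were 4.12 ± 0.18 in female pools and 3.47 ± 0.04 in male pools (SD, n = 3 each), and the difference was 0.65 (SE 0.10). Both means lay under 4.21, so no fold is given for this probe set, and female pool 1 alone exceeded that level. It is the member that passed. The call ended when any 1 of the 6 pools was left out, with differences of 0.54 to 0.71. Leaving out a pool also lowered the calls over all chicken probe sets, from 209 to between 113 and 161. The call was only just inside the threshold, and it narrowly missed the threshold when the arrays were centred on their medians, with a difference of 0.65.

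The brighter APAF1 probe sets showed less. Gga.15359.1.S1_s_at, the brightest, had 5.83, 5.52 and 5.52 in female pools and 5.45, 5.63 and 5.29 in male pools. The pools of the sexes overlapped here, with a difference of 0.16 (SE 0.12) and a 95% interval of -0.12 to 0.44. GgaAffx.23578.1.S1_at had 4.58, 4.71 and 4.37 in female pools and 4.51, 4.59 and 4.59 in male pools, a difference of -0.01 (SE 0.10). Its interval, -0.24 to 0.22, ends below the 0.65 of the dimmest probe set. Both lay above 4.21, at percentiles 59.6 and 43.8 of the mean signal among chicken probe sets, against 26.4 for the dimmest.

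The names of the brightest and the dimmest APAF1 probe set differ only in the last letters, and these may share probes. Over the 6 pools their Pearson r was 0.68, and 2782 of 37692 other chicken probe sets followed the brightest more closely. The third APAF1 probe set gave r = 0.08 with the brightest and -0.02 with the dimmest. These coefficients describe 6 pools that share arrays and a sex difference, and carry no test.

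CASP2, the stress-linked initiator, gave lower values in females in both of its probe sets. The brighter, Gga.14486.1.S1_at had 8.11, 7.94 and 8.00 in female pools and 8.28, 8.16 and 8.18 in male pools. The second, Gga.504.1.S1_at, had 6.79, 6.68 and 6.64 in female pools and 6.79, 7.00 and 6.89 in male pools. Every female pool was below every male pool in both, although in the second female pool 1 and male pool 1 were nearly equal. The differences were -0.19 (SE 0.08) in each, or 0.88 times the male level, and their r over the pools was 0.64. Neither passed.

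CASP9, the partner of APAF1, has 1 probe set. It read 6.86, 7.08 and 6.93 in female pools and 7.19, 7.06 and 7.02 in male pools, and the sexes overlapped. The difference was -0.13 (SE 0.09), with a 95% interval of -0.34 to 0.07.

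CASP8, the death receptor caspase, varied more among the male pools than between the sexes. Its probe set had 6.08, 6.03 and 5.80 in female pools and 6.12, 5.27 and 5.93 in male pools. Male pool 2 was the low one, and the other 5 pools spanned 5.80 to 6.12. The difference of 0.20 (SE 0.21) became -0.06 when male pool 2 was left out, so 1 pool set its sign. The SD was 0.149 in female and 0.445 in male pools. The spread within a sex, pooled over both sexes, was 0.33, larger than in 96.3% of chicken probe sets.

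CASP6, the executioner caspase, was dim. The brighter of its probe sets, Gga.2960.1.S1_at, had 5.40, 4.62 and 4.86 in female pools and 5.04, 5.21 and 4.72 in male pools, a difference of -0.03 (SE 0.21). The highest and the lowest pool were both female, and the spread within a sex was again 0.33. The other, GgaAffx.21232.1.S1_at, averaged 4.01 ± 0.10 in female and 4.02 ± 0.14 in male pools (SD, n = 3 each), under the non-chicken level of 4.21. Their r over the 6 pools was -0.27, so the brighter one's pattern was not seen in the dimmer.

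BCL2, the founding survival gene of its family, was higher in every female pool than in every male pool in all 3 of its probe sets. The brightest, Gga.4394.1.S2_s_at, had 8.67, 8.97 and 8.83 in female pools and 8.53, 8.21 and 8.25 in male pools. Gga.4394.1.S1_at had 7.51, 7.71 and 7.80 in female pools and 7.24, 7.04 and 6.98 in male pools. Gga.4394.1.S2_at had 7.01, 7.21 and 7.13 in female pools and 6.87, 6.56 and 6.70 in male pools. Female pool 1 and male pool 1 were the closest pair in each of the 3.

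The differences for BCL2 were 0.50 (SE 0.12), 0.59 (SE 0.11) and 0.41 (SE 0.10) in that order, or 1.41-, 1.50- and 1.33-fold higher in females. None of the 3 passed over all chicken probe sets, although all lay at percentile 76.3 or above of the mean signal. Over the 3 probe sets the 95% intervals of the fit spanned 0.17 to 0.83. In contrast to APAF1, where the passing probe set was the dimmest, the BCL2 probe sets moved together: r over the 6 pools was 0.95 to 0.99 for the 3 pairs. Only 12 of 37692 other chicken probe sets followed the brightest BCL2 probe set more closely than Gga.4394.1.S2_at did. All 3 share a name stem and may share probes, so they are not taken as 3 independent measurements.

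Markers of neurons and progenitors are given beside these values. The mean log2 signal of the 6 neuron markers was 10.53 to 10.81 in female pools and 10.29 to 10.57 in male pools, and that of the 6 progenitor markers was 9.64 to 9.69 in female pools and 9.48 to 9.54 in male pools. The neuron means of the sexes overlapped and the progenitor means did not. Of each list 5 of 6 genes had a positive difference. Among the neuron markers these were TUBB3 at 0.45, SYT1 at 0.405, ELAVL4 at 0.34, DCX at 0.33 and STMN2 at 0.02. Among the progenitor markers, besides NES, they were SOX2 at 0.29, PAX6 at 0.17, VIM at 0.10 and FABP7 at 0.05. The exceptions were SNAP25 at -0.00 and the progenitor marker HES5 at -0.17. No neuron marker passed, and of the progenitor markers 1, NES, a progenitor filament gene, rose by 0.55 (limma adjusted p = 0.0380). The part of these markers, or of the haemoglobin genes, in the BCL2 and APAF1 values was not tested. In whole brain, more cells of a type and more RNA per cell cannot be told apart.

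**Figure D2:**
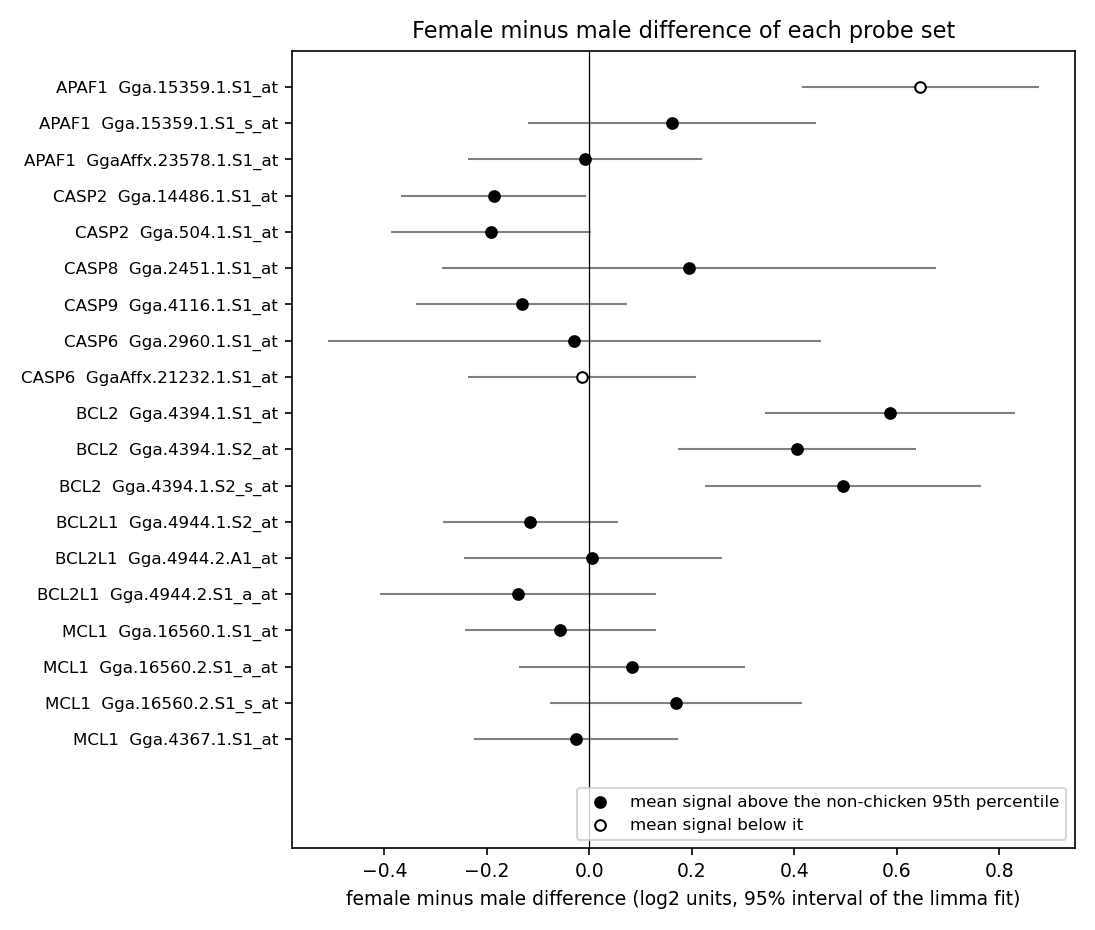
Female minus male difference in log2 units (horizontal axis) for each of the 19 probe sets, with the 95% interval of the limma fit. Filled points have a mean signal above the non-chicken 95th percentile and open points one below it. APAF1 Gga.15359.1.S1_at, an open point at 0.65, and the 3 BCL2 points at 0.41 to 0.59 stand to the right, while CASP2 sits at -0.19.

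BCL2L1, the closest relative of BCL2 in this group by role, did not follow it. Its brightest probe set, Gga.4944.1.S2_at, had 8.91, 8.83 and 8.94 in female pools and 8.94, 9.02 and 9.07 in male pools. Every female pool was below every male pool, but the nearest values were almost equal, and the difference was -0.12 (SE 0.07, 95% interval -0.29 to 0.06). Gga.4944.2.S1_a_at had 7.81, 7.54 and 7.79 in female pools and 7.66, 7.89 and 8.01 in male pools, a difference of -0.14 (SE 0.12). These probe sets agreed over the pools, with r = 0.92. The third, Gga.4944.2.A1_at, averaged 4.69 in both sexes, differed by 0.01 (SE 0.11) and had r of 0.03 with each of the others. The spread of the brightest within a sex, 0.06, was among the smallest here, with only 12.0% of chicken probe sets varying less.

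The BCL2L1 intervals ended at 0.06, 0.13 and 0.26, from the brightest probe set to the dimmest, under the lowest BCL2 estimate of 0.41. That estimate has an interval of its own, 0.17 to 0.64, which the interval of the dimmest BCL2L1 probe set overlapped. No test of the difference between the genes was made.

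MCL1, a survival protein that is made and degraded quickly, has 4 probe sets, and the sexes overlapped in each. The brightest, Gga.4367.1.S1_at, had 7.50, 7.38 and 7.61 in female pools and 7.58, 7.44 and 7.54 in male pools, a difference of -0.03 (SE 0.09). Gga.16560.2.S1_s_at gave the largest difference, 0.17 (SE 0.11), with female pool 3 at 7.11 as the highest of the 6. The remaining probe sets, Gga.16560.2.S1_a_at and Gga.16560.1.S1_at, differed by 0.08 (SE 0.10) and -0.06 (SE 0.08). The 4 intervals ran from -0.24 to 0.42 at their widest, and that of Gga.16560.2.S1_s_at included the lowest BCL2 estimate, 0.41.

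**Figure D3:**
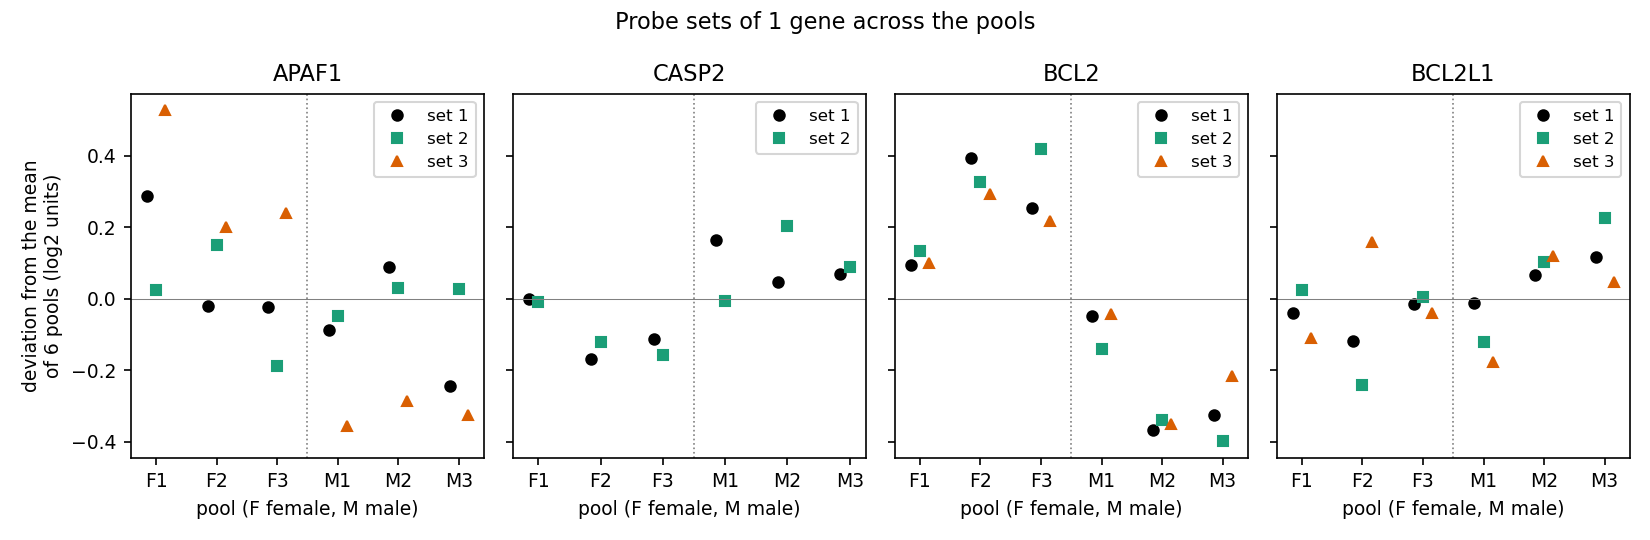
Deviation of each pool from the probe set's mean over the 6 pools, in log2 units (vertical axis), for APAF1, CASP2, BCL2 and BCL2L1, with female pools left of the dotted line and male pools right of it. Colours and shapes mark probe sets from bright (set 1) to dim. All 3 BCL2 sets lie above 0 in each female pool and below 0 in each male pool, whereas for APAF1 set 3 alone does so.

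Across the group, agreement between probe sets of a gene was uneven. The 6 genes with more than 1 probe set gave 17 pairs, of which 9 had differences of the same sign, and r over the 6 pools ran from -0.27 to 0.99 with a median of 0.58. The pairs of BCL2 and the bright pair of BCL2L1 were the closest, and the 5 loosest were the CASP6 pair and the pairs that held GgaAffx.23578.1.S1_at of APAF1 or Gga.4944.2.A1_at of BCL2L1, with r of 0.08 or less. CASP2 and CASP6 also gave 1 sign in both probe sets, at differences near -0.19 for CASP2 and between -0.03 and -0.01 for CASP6.

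Of the 19 probe sets 9 had a positive difference (47.4%, against 47.0% of all chicken probe sets) and 10 a negative one, with a median of -0.01, equal to the -0.01 over all chicken probe sets. In 7 of the 19 the pools of the sexes did not overlap: 3 of BCL2 and 1 of APAF1 with females above, and 2 of CASP2 and 1 of BCL2L1 with females below. Over all chicken probe sets this held for 16.2%, with females above in 6.93% and below in 9.26%. Since these probe sets were chosen with the contrast known, and 5 of the 7 belong to a pair of genes, nothing is read from that count. In the annotation of the assembly GRCg7b all 8 genes lie on autosomes, on chromosomes 1 (APAF1 and CASP2), 2 (BCL2), 4 (CASP6), 7 (CASP8), 20 (BCL2L1), 21 (CASP9) and 25 (MCL1), so none has an extra copy in either sex. The array names no genome build, and no coordinates are given. No pool stood out over the group, since each was the highest in 1 to 5 and the lowest in 2 to 5 of the 19 probe sets.

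The genes whose pool pattern was most like APAF1 were looked up among 14787 single-gene probe sets at or above the chicken median signal. For the dimmest APAF1 probe set these were NCKIPSD (r = 0.99), the W-linked HNRNPKL (r = 0.99) and NES (r = 0.99), with differences of 0.21, 4.38 and 0.55. That probe set was taken for its smallest p between the sexes, so its r contains the sex difference and ranks genes that differ by sex high. For the brightest they were DIAPH2, GABRA2 and FAM133B, with r of 0.99 each and differences of 0.32, 0.21 and 0.18. No gene was common to both sets of 3. With 6 pools, 120 candidates exceeded r = 0.9 for the dimmest and 134 for the brightest, and the patterns are a description only.

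Other genes of the cell death pathway were read from a list of 75 symbols sorted by role, of which 59 genes with 109 probe sets were matched. None of the 109 passed (limma, adjusted p from 0.119 to 0.997), against 0.554% of all chicken probe sets. Of the 25589 single-gene probe sets on numbered autosomes, 11 passed. At an unadjusted p under 0.05 there were 15 (13.8%), against 10.4% of all chicken probe sets. The pools of the sexes did not overlap in 18 (16.5%, against 16.2%), with females above in 11 and below in 7. The median difference was -0.01, as over all chicken probe sets.

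Upstream of the mitochondrion, BID, the BH3-only protein that links CASP8 to the mitochondrial route, had 9.79, 9.93 and 9.84 in female pools and 10.07, 10.21 and 10.16 in male pools. The sexes did not overlap, and the difference was -0.29 (SE 0.08, limma adjusted p = 0.250). BAK1, a protein that opens the outer mitochondrial membrane, differed by -0.03 (SE 0.09) in its brighter probe set, with 7.47 ± 0.05 in female and 7.50 ± 0.14 in male pools (SD, n = 3 each). Over the 16 probe sets listed as BAX and BAK type and BH3-only proteins, 6 differences were positive and 10 negative, with a median of -0.05. Of all chicken probe sets 47.0% had a positive difference. The list matched no probe set for BAX, BAD, HRK, BCL2L11 or BBC3, and the 16 included those of BNIP3, BCL2L13 and BECN1.

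Cytochrome c, the ligand of APAF1, is encoded by CYCS, which averaged 10.73 ± 0.14 in female and 10.79 ± 0.08 in male pools, a difference of -0.07 (SE 0.09). HTRA2, a protease released with it, gave -0.18 (SE 0.10, limma adjusted p = 0.580). The 13 probe sets of apoptosome and mitochondrial factors had a median of -0.06. The sexes separated without overlap in 0 of them, against 16.2% of all chicken probe sets. For the BAX and BAK type and BH3-only proteins this held for 5 of 16, and nothing is read from such small counts.

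Among inhibitors of apoptosis, BIRC8, which RefSeq lists with the synonym XIAP, an inhibitor of caspases, differed by 0.22 (SE 0.12) and BIRC6 by 0.30 (SE 0.13). Neither passed. The 11 probe sets ran from -0.29 to 0.30, 5 positive and 6 negative, with a median of -0.03. Among BCL2 relatives and other survival genes, TMBIM6, an inhibitor of cell death in the endoplasmic reticulum, gave -0.22 (SE 0.12). The 8 probe sets of that role ran from -0.38 to 0.27.

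TNFRSF21, a death receptor (DR6) expressed in neurons, had 9.75, 9.78 and 9.91 in female pools and 9.46, 9.35 and 9.44 in male pools. The difference was 0.39 (SE 0.08), the smallest p of the list, and it did not pass (limma adjusted p = 0.119). Over the 20 probe sets of death receptors and adaptors, 9 differences were positive and 11 negative, with a median of -0.01. MDM2, a ubiquitin ligase, gave the lowest value of the list, -0.50 (SE 0.14, limma adjusted p = 0.291), in its brightest probe set, with 5.85 ± 0.22 in female and 6.35 ± 0.21 in male pools. The other MDM2 probe sets, all under 4.21, gave -0.13 to -0.05.

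SPTAN1, a spectrin cut by caspases, was higher in females by 0.31 (SE 0.08, limma adjusted p = 0.266) in its brightest probe set, with 9.83 ± 0.09 in female and 9.52 ± 0.09 in male pools. CASP14 had the smallest p of the other caspases by brightest probe set, at -0.10 (SE 0.08), averaging 3.43 in female and 3.53 in male pools, both under 4.21. The largest single difference among these was that of CASP8AP2, a CASP8-associated protein, named after its values were seen, at 0.57 (SE 0.44) in Gga.10188.1.S1_s_at. There the pools ran from 5.57 to 6.62 in females and from 4.56 to 6.35 in males and overlapped. All 4 CASP8AP2 probe sets gave positive differences, the others 0.23, 0.25 and 0.46. In the last, GgaAffx.24730.1.S1_at, every female pool lay above every male pool, averaging 4.05 in female against 3.59 in male pools, both under 4.21, and none of the 4 passed.

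**Figure D4:**
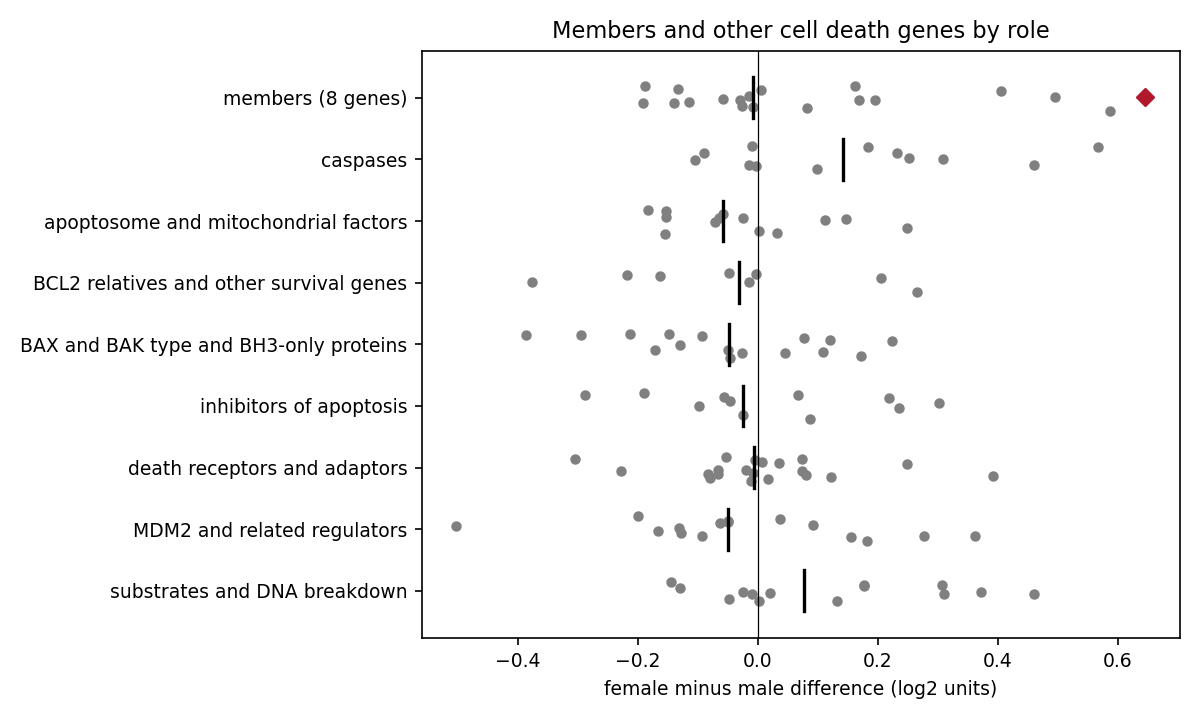
Female minus male difference in log2 units (horizontal axis) of the 19 member probe sets and of 109 probe sets of other cell death genes by role (rows). Each point is a probe set, black bars are medians, and the red diamond is the probe set that passed an adjusted p under 0.05, of APAF1. The medians of the rows lie between -0.06 and 0.14, and no probe set outside the members passed.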

How the data were processed

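Log2 expression values were deposited for 3 female and 3 male brain pools, a value for each probe set on each array. They come from RMA in the affy package, as the submitters' processing notes name it, without versions. RMA equalises the arrays and gives no detection calls, and it would hide a shift common to nearly all genes. The log2 scale was inferred from the range of the deposited values, 2.28 to 14.1.

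Control probe sets (153) and non-chicken ones (689) of the 38535 were set aside. The remaining 37693 were fitted with no signal filter by limma 3.58.1 in R 4.3.3 (lmFit, then eBayes) with sex as the only term. Tests were two-sided, with Benjamini-Hochberg adjustment and a threshold of 0.05. The fit was tested on simulated data with independent noise for each probe set and pool, without variation shared between pools. SD is the spread over 3 pools of a sex. Where a single spread within a sex is given for a probe set, it is the residual SD of the fit, pooled over both sexes. The p-values set the female minus male difference against the moderated spread between pools. Precision is limited by having 6 arrays.

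The members and the lists were chosen with earlier results of these data known. Named pathway genes were those with the smallest p of each role by brightest probe set, with BAK1, BID, BIRC8 (listed as XIAP) and CYCS in any case. XIAP was matched through a synonym, and cell type markers by symbol alone. Likeness to APAF1 used Pearson's r over the 6 pools. Alternatives were other variance moderation, array weights, median centring, signal filters, each pool left out and the replicate number as a block.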

Additional observations from a re-analysis of the deposited data

How the results depend on the processing

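The count of member probe sets that passed was 1, of APAF1, and was also 1 with eBayes set to trend and robust, with array weights and with control and non-chicken probe sets kept. It was 0 with arrays centred on the median, with the replicate number as a block (the cause was not tested) and with each signal filter, which removed that dim probe set, and 0 (lowest) to 0 (highest) without any 1 of the 6 pools. The APAF1 difference itself stayed between 0.54 and 0.71 without any 1 pool. The count of other pathway probe sets was 0 in the main fit and under each of these alternatives. In the main fit 15 of these probe sets had an unadjusted limma p under 0.05. Of the 19 member differences 13 kept their sign in all 10 alternatives run on them, among them all of BCL2 (0.33 to 0.67 without any 1 pool) and CASP2 (-0.24 to -0.14), while 6, of APAF1, CASP8, CASP6, BCL2L1 and MCL1, changed sign in at least 1. Taking the mean over the probe sets of a gene in place of its brightest lowered the level of each gene with several, for APAF1 to 4.63 from 5.54. Same-numbered pools of the sexes deviated from their sex's mean with r of 0.01, 0.15 and 0.32 for numbers 1, 2 and 3. For differently numbered pools r ran from -0.24 to 0.11. The labels give a replicate number and name no pairing, and whether the numbers mark pairs was not tested. The main fit did not take them as pairs. Array signals near background limit APAF1 and CASP6 most.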
